A study of Mus musculus with 27 samples.

Results

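The 10 genes described here are occludin (Ocln) and 9 claudins (Cldn1, Cldn3, Cldn4, Cldn6, Cldn7, Cldn8, Cldn11, Cldn12 and Cldn23), chosen by name with earlier results of these data known, and read from 12 of the 41174 probes of a mouse expression array, which stand for 10 of 28508 genes. Each value is a log2 ratio of the sample, labelled with Cy5, over a common mouse reference RNA from cell lines, labelled with Cy3, averaged over the probes of a gene. Cldn1 and Ocln had 2 probes each, the others 1. A ratio says nothing about how one gene's level compares with another's, so every comparison below is made within a gene, across samples.

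Tight junctions seal the space between neighbouring epithelial cells near their apical border. Claudins are four-pass membrane proteins that pair across this space and decide which ions and molecules pass, and occludin is a four-pass protein of another family (MARVEL) in the same strands. The esophagus begins as a tube lined by simple columnar cells and becomes a stratified squamous epithelium, and Nrf2 (gene symbol Nfe2l2) is the transcription factor of antioxidant genes that Keap1 holds in check.

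The study compared 9 groups of 3 biological replicates, 27 arrays in all. Wild-type C57BL/6J esophagi came from 4 stages, the embryonic days E11.5 and E15.5, birth (P0) and postnatal day 7 (P7). At P7 there were also Nrf2-/-, Keap1-/- and Nrf2-/-Keap1-/- esophagi, on a C57BL/6J background, and from adults of 8 weeks came the esophageal epithelium of wild-type and Nrf2-/- mice. The null alleles are carried in every cell of the mouse. Samples up to P7 were whole esophagus, so a lower value there can mean fewer cells of a type or less RNA per cell, which cannot be told apart in bulk RNA.

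Several features of the arrays bear on these values. The E11.5 replicate 3 array correlated best with an E15.5 array (r = 0.98 over 16923 genes) and the E15.5 replicate 1 array with an E11.5 array (r = 0.96). Their mean correlations with their own groups were 0.82. Counts of called members at the wild-type stages and the member differences from E11.5 to E15.5 are therefore given with and without both. Other values at these stages, those of the other gene lists among them, include both arrays unless stated. The slide and the scan day of the 3 Keap1-/- arrays held no other group, and no other P7 array was read with their software version, so at P7 genotype cannot be told apart from these. Nfe2l2 lay at a mean log2 ratio of -0.26 in wild-type and at -3.89 and -4.12 in Nrf2-/- and Nrf2-/-Keap1-/- esophagi at P7, while Keap1 itself did not separate Keap1-/- (0.20) from wild-type (0.65, adjusted p = 0.15 in limma), and where its probe lies in the deleted gene was not known. Nqo1, an antioxidant enzyme controlled by Nrf2, lay at 4.04 in Keap1-/- and at -0.86 in wild-type esophagi.

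Promoters of Cldn3, Cldn4 and Cldn7 are shown first, because these are the members lower in Keap1-/- esophagi for which RefSeq windows were held, from 250 bases before to 50 after each annotated start on GRCm38.p6. Cldn3 lies on the + strand (chr5:134985964-134986263), and Cldn4, its neighbour 39.3 kb away with 0 genes between them, on the - strand (chr5:134946885-134947184). Cldn7 has 2 windows on the + strand (chr11:69964529-69964828 and chr11:69965171-69965470). All run 5′ to 3′ on the gene's strand, and capitals mark AP-1 (TGANTCA), the Snail-type E-box (CAGGTG or CACCTG) and the cyclic AMP response element (TGACGTCA), none of which overlap in these windows.
Cldn3: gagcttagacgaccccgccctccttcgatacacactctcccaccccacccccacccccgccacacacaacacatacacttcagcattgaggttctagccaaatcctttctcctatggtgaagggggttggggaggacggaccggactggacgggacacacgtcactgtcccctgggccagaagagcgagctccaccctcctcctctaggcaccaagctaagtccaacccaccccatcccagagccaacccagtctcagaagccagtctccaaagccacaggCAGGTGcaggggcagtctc
Cldn4: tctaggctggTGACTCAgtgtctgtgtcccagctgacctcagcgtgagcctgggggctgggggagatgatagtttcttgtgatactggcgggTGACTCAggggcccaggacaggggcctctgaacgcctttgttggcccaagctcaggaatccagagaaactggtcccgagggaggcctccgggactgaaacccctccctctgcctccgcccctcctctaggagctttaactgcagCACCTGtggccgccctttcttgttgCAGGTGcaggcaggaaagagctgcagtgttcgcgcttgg
Cldn7 window 1: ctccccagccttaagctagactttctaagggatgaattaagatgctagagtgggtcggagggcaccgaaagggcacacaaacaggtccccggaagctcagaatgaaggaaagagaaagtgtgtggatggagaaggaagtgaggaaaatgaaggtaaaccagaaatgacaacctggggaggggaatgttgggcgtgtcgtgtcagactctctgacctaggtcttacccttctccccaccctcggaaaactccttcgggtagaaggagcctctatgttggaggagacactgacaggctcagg
Cldn7 window 2: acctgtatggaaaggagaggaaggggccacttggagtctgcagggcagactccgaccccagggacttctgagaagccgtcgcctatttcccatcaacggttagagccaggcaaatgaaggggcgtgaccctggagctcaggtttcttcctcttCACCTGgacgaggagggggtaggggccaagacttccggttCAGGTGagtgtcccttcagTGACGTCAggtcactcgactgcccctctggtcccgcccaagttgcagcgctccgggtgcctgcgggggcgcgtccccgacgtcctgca

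Windows were held for 8 of the 10 members (all but Cldn8 and Cldn23), 12 windows in all. The 2 windows of Ocln overlap, as do the 3 of Cldn12, so the 12 are not separate promoters. On both strands, the E-box stood in 6 of the 12, both of Ocln among them, against 20.2% of 32851 promoter windows of the same length. AP-1 stood in 1 of 12, that of Cldn4, against 7.81%, and the cyclic AMP element in 2, those of Cldn6 and Cldn7, against 1.79%. The core of the antioxidant response element (TGACNNNGC), the site to which Nrf2 binds, stood in 12.4% of all windows and in 0 of the 12, and the grainyhead-like motif AACNGGTT in 2.09% and 0. These letters describe the windows and show no binding.

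From E11.5 to P7 Cldn23, Cldn4, Cldn3, Cldn7 and Ocln rose, from 1.86-fold for Ocln (mean of its 2 probes) to 8.31-fold for Cldn23, while Cldn11 and Cldn6 fell by 7.08 and 4.46 times. Cldn7, Cldn23, Ocln, Cldn11 and Cldn6 also changed in the step from E15.5 to birth. Over the 4 wild-type stages 8 of 10 members passed limma's F-test at an adjusted p of at most 0.05, where 30.1% of 19915 genes did, and the exceptions were Cldn8 and Cldn12. Between E11.5 and P7, 7 of 10 changed (30.2% of all genes), 5 upwards (16.8%) and 2 downwards (13.4%), and the median log2 change of the members was 0.85 against -0.01 for all genes.

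**Figure D1:**
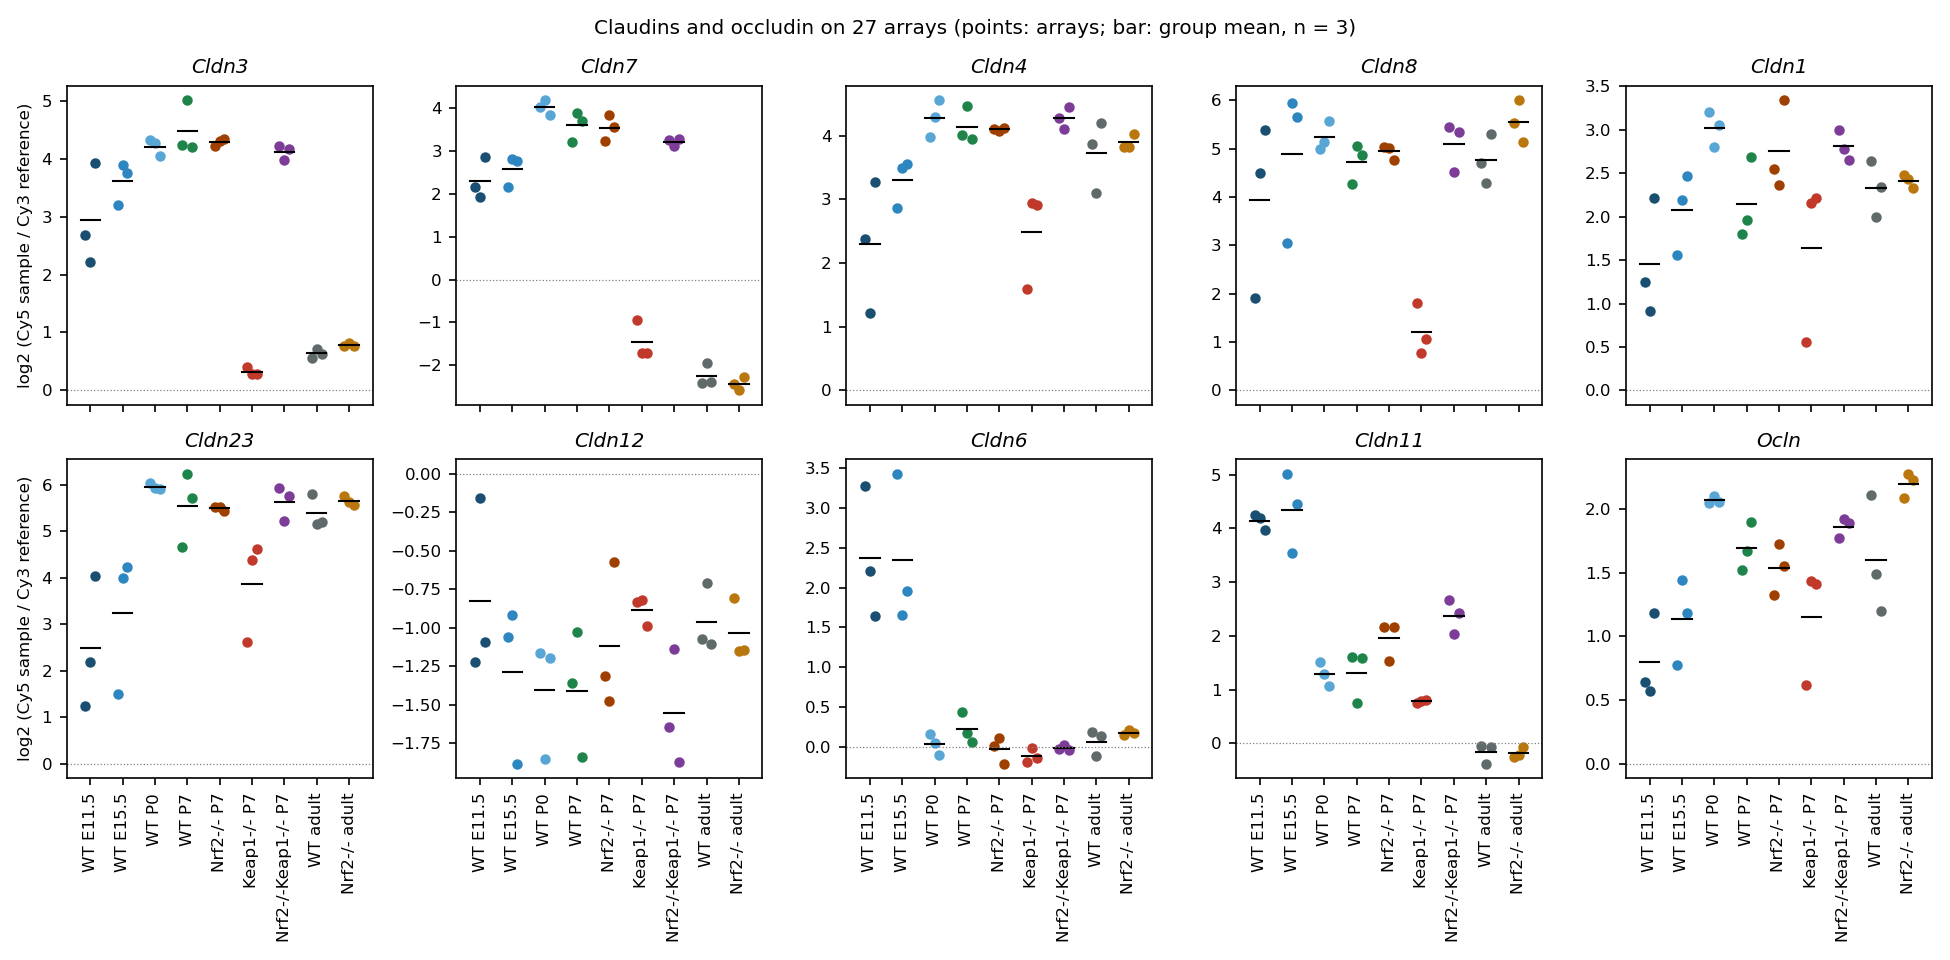
Log2 ratio of sample over reference (vertical axis) for each of the 10 genes on all 27 arrays, by group (horizontal axis). Points are arrays and bars are means of 3 arrays. Cldn3 and Cldn7 lie lowest in Keap1-/- and adult groups, and Cldn6 and Cldn11 are highest at E11.5 and E15.5.

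Of the claudins that tighten epithelia, Cldn3 read 2.68, 2.22 and 3.92 at E11.5, 3.21, 3.89 and 3.76 at E15.5, 4.31, 4.26 and 4.04 at P0, and 4.24, 5.0 and 4.21 at P7. Its 3 P7 arrays lay above all arrays of E11.5, and the increase of 1.54 ± 0.39 (SE) had an adjusted p of 0.014 in limma, a call lost without E11.5 replicate 1 (1.41, adjusted p = 0.053) or P7 replicate 2 (1.28, 0.052). Cldn7, a claudin of the lateral membrane, read 2.15, 2.81 and 2.77 at E15.5 and 4.04, 4.18 and 3.84 at P0. The groups did not overlap, and the increase of 1.44 ± 0.27 (adjusted p = 0.0049) was 2.72-fold. Cldn4, partner of Cldn8 in kidney tubules, read 2.39, 1.22 and 3.28 at E11.5 and 4.01, 4.47 and 3.95 at P7 (change 1.85 ± 0.43, adjusted p = 0.0090).

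The member with the largest rise was Cldn23, which read 1.24, 2.18 and 4.05 at E11.5, 1.5, 3.99 and 4.23 at E15.5, and 6.05, 5.94 and 5.91 at P0. The embryonic arrays were spread over more than 2 log2 units, those at birth lay close together, and the increase from E15.5 was 2.73 ± 0.80 (adjusted p = 0.036). That call was lost without E15.5 replicate 1 (1.86, adjusted p = 0.11), any 1 of the 3 P0 arrays (0.091 to 0.095) or P7 replicate 3 (0.051). The Cldn23 increase from E11.5 to P7, 3.06 ± 0.80 (adjusted p = 0.016), was lost without E11.5 replicate 1 (2.43, 0.067) or P7 replicate 2 (2.71, 0.058). Ocln rose by 0.94 ± 0.20 from E15.5 to P0 (adjusted p = 0.0090), from 0.77, 1.44 and 1.19 to 2.05, 2.10 and 2.06. One of its 2 probes was not well above background on any of the 27 arrays, so the mean of the probes understates the ratio of the other, which alone rose by 1.63 from E15.5 to P0 (adjusted p = 0.010) and by 1.64 from E11.5 to P7 (0.0065).

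Cldn1, needed for the water barrier of skin, read 1.25, 0.91 and 2.21 at E11.5, 3.20, 2.81 and 3.06 at P0 and 1.80, 1.96 and 2.69 at P7. Its P0 arrays lay above all of P7, but the difference of -0.87 from P0 to P7 had an adjusted p of 0.29. Its call over the 4 stages was lost without E11.5 replicate 1 or 2, any P0 array or P7 replicate 2 (adjusted p of 0.050 to 0.11), and that of Cldn3 without any 1 array other than E11.5 replicate 3 and E15.5 replicates 1 and 2 (adjusted p up to 0.11). Cldn8, a barrier to cations in the kidney collecting duct, was scattered from 1.91 to 5.39 at E11.5 and from 3.05 to 5.95 at E15.5. Cldn12, a claudin linked to calcium passage in the gut, lay between -1.88 and -0.16 at the 4 stages, with groups that overlapped.

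Cldn11, best known from myelin and the testis barrier, was high early: 4.26, 4.20 and 3.96 at E11.5, 5.02, 3.54 and 4.45 at E15.5, then 1.51, 1.29 and 1.06 at P0 and 1.60, 0.76 and 1.59 at P7. Its fall from E15.5 to P0 was -3.05 ± 0.34 (8.29-fold, adjusted p = 0.00027). Cldn6, a claudin of embryonic epithelia, read 3.27, 2.21 and 1.65 at E11.5, 3.43, 1.66 and 1.96 at E15.5, and 0.15, 0.04 and -0.11 at P0 (change -2.32 ± 0.46, adjusted p = 0.0066). It was well above background on all 6 embryonic arrays, on 2 of 3 at P0, 1 of 3 wild-type arrays at P7 and 0 of all other arrays, so it was not tested there, and its fall may be larger than the ratio shows.

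Between E15.5 and P0, 5 of 10 members changed (19.7% of all genes), 3 upwards (11.2%) and 2 downwards (8.44%), with a median of 0.76 against -0.01 for all genes. Between P0 and P7 limma called 0 of 10 (2.44%), and 1, Cldn1, had an unadjusted p under 0.05 (2822 of 19915 genes did). Between E11.5 and E15.5 it called 0 of 10 with all 6 arrays (0% of all genes), with 1, Cldn4, at an unadjusted p under 0.05 (327 of 19915 genes).

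Leaving out E11.5 replicate 3 and E15.5 replicate 1 turned that count into 7 of 10, all upwards, against 13.8% of all genes. Cldn8 then rose by 2.60 (adjusted p = 0.030), Cldn23 by 2.40 (0.0082), Cldn4 by 1.73 (0.011), Cldn3 by 1.37 (0.0097), Cldn1 by 1.25 (0.018), Cldn7 by 0.76 (0.045) and Ocln by 0.71 (0.014). Cldn6 moved by -0.93 (0.070). Without these arrays the same 5 members were called from E15.5 to P0 (19.5% of all genes), 8 from E11.5 to P7 with Cldn1 added (40.4%), 0 between P0 and P7 (5.65%) and 9 over the 4 stages with Cldn8 added (45.6%). Whether the labels of the arrays were exchanged was not tested.

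**Figure D2:**
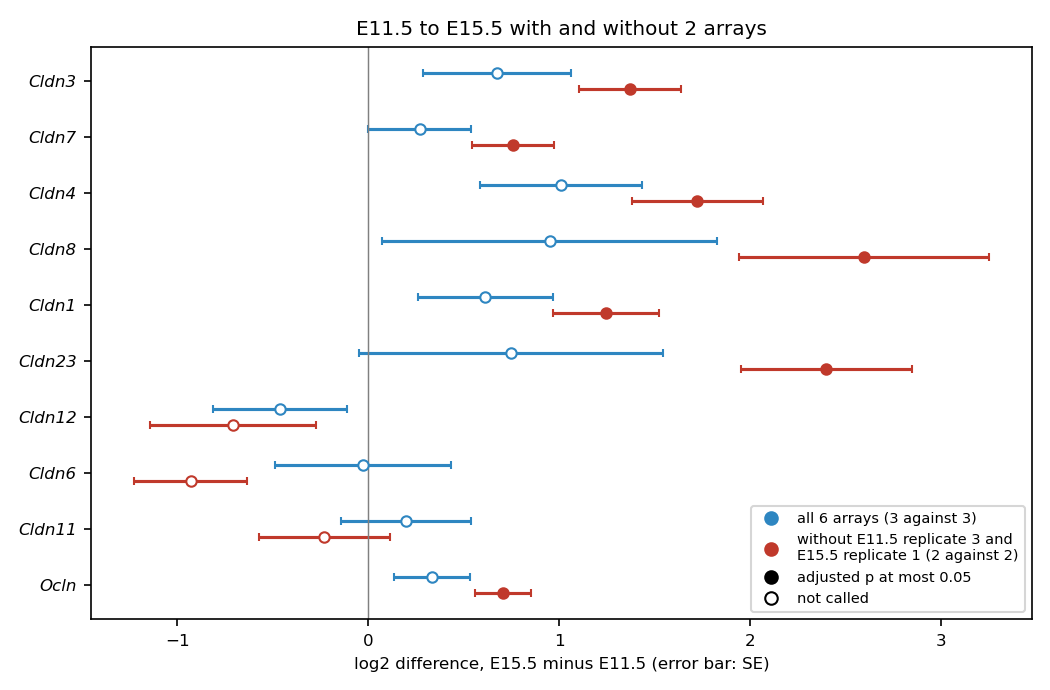
Log2 difference of E15.5 from E11.5 (horizontal axis) for the 10 genes, with SE bars, from all 6 arrays (blue) and without E11.5 replicate 3 and E15.5 replicate 1 (red). Filled points passed an adjusted p of 0.05: none in blue, 7 in red.

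At P7, Cldn7, Cldn3 and Cldn8 were lower in Keap1-/- than in wild-type esophagi by 33.2, 17.8 and 11.5 times, and Cldn4 and Cldn23 by 3.16 and 3.18 times. No tested member passed the test in Nrf2-/- or in Nrf2-/-Keap1-/- esophagi. Of 9 tested members 5 were lower in Keap1-/- than in wild-type esophagi and 0 higher, against 33.3% of 19246 genes in either direction, 18% lower and 15.4% higher. Their median was -1.66 against -0.03 for all genes.

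Cldn7 read 3.21, 3.88 and 3.7 in wild-type, -0.95, -1.71 and -1.71 in Keap1-/-, and 3.27, 3.11 and 3.28 in Nrf2-/-Keap1-/- esophagi. The Keap1-/- arrays lay apart from all others at P7, with a difference from wild-type of -5.05 ± 0.23 (adjusted p = 1.34e-07). Cldn3 read 4.24, 5.0 and 4.21 in wild-type and 0.40, 0.29 and 0.29 in Keap1-/- esophagi, a difference of -4.16 ± 0.18 (adjusted p = 8.04e-08), with groups far apart. With both genes lost it stood at 4.22, 3.97 and 4.16. Cldn8 read 4.27, 5.06 and 4.87 in wild-type, 1.80, 0.77 and 1.05 in Keap1-/- and 5.45, 4.52 and 5.33 in Nrf2-/-Keap1-/- esophagi, the first pair differing by -3.52 ± 0.31 (adjusted p = 1.8e-05). The scanner software marked the Cldn7 spot as an outlier on 15 of 27 arrays, all 3 wild-type arrays at P7 among them but none of Keap1-/- or adult tissue. Of all spots it marked 8.83 to 12.2% on wild-type and 1.85 to 3.72% on Keap1-/- arrays at P7. Leaving marked spots out left Cldn7 and Cldn23 untested and Cldn3 at -4.28.

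**Figure D3:**
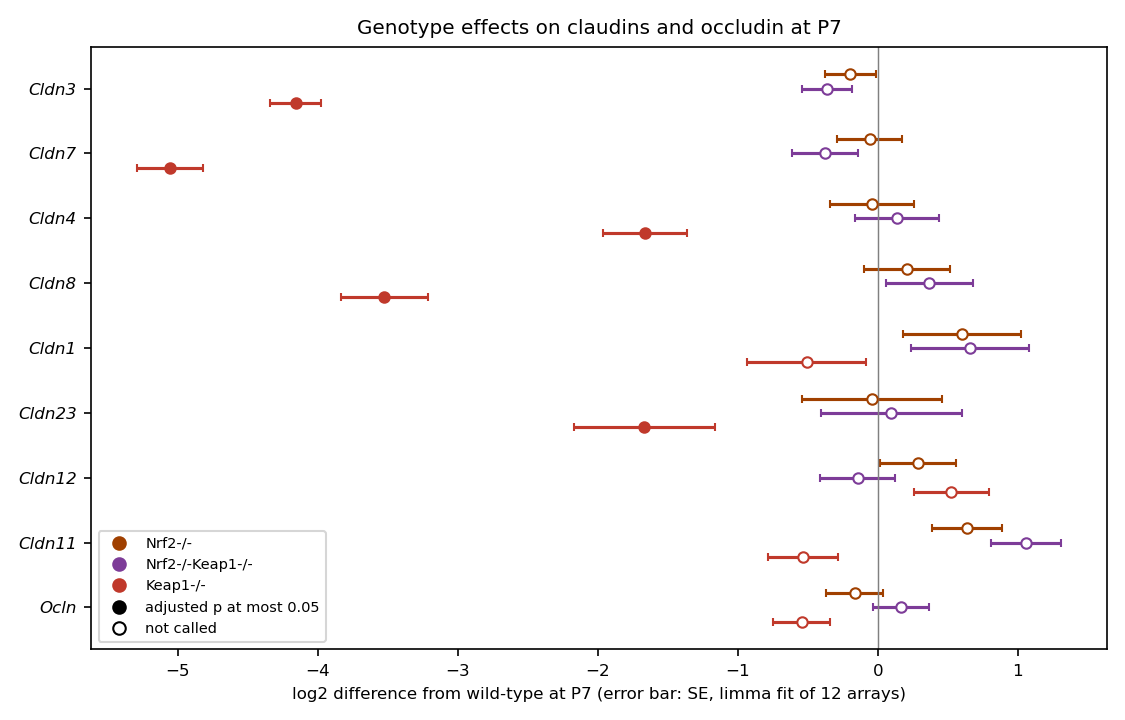
Log2 difference from wild-type at P7 (horizontal axis) for the 9 tested genes in each genotype, with SE bars from the fit of 12 arrays. Filled points passed an adjusted p of 0.05, which 5 genes did in Keap1-/- and none in Nrf2-/- or Nrf2-/-Keap1-/- esophagi.

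Cldn4 read 1.59, 2.95 and 2.91 in Keap1-/- against 4.01, 4.47 and 3.95 in wild-type esophagi (-1.66 ± 0.30, adjusted p = 0.0021), and Cldn23 read 2.61, 4.39 and 4.63 against 4.67, 6.24 and 5.73 (-1.67 ± 0.50, adjusted p = 0.026). For both genes the 3 Keap1-/- arrays were below the 3 wild-type arrays, and replicate 1 was the lowest. These 2 calls depend on the processing: in the deposited ratios the differences were -0.02 (adjusted p = 0.94) for Cldn4 and 0.32 (0.39) for Cldn23, whereas those of Cldn7, Cldn3 and Cldn8 were -5.58, -3.77 and -4.14, with adjusted p of 2.83e-07, 1.38e-06 and 0.00027. The Cldn23 call was also lost without Keap1-/- replicate 1 (-1.03, adjusted p = 0.059), wild-type replicate 2 (-1.32, 0.084) or wild-type replicate 3 (-1.58, 0.071).

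Ocln (-0.54 ± 0.20, adjusted p = 0.061), Cldn11 (-0.53 ± 0.25, 0.12), Cldn1 (-0.51 ± 0.42, 0.39) and Cldn12 (0.53 ± 0.27, 0.16) did not pass the test. Cldn1 read 0.56, 2.16 and 2.21 in Keap1-/- against 1.80, 1.96 and 2.69 in wild-type esophagi, and its 2 probes disagreed. One read 0.67, 2.84 and 2.82 against 1.68, 1.63 and 2.53, overlapping. The other read 0.44, 1.48 and 1.60 against 1.92, 2.29 and 2.84, without overlap. This other probe was the brighter over all arrays but the dimmer on the Keap1-/- arrays (Cy5 of 60.25 to 159.5 against 71.67 to 346.8). Ocln read 0.61, 1.43 and 1.41 against 1.52, 1.67 and 1.90, and its detected probe 1.11, 2.68 and 2.67 against 2.87, 3.18 and 3.46. With only the probe of each gene that was brightest over all arrays, both were lower in Keap1-/- esophagi, Cldn1 by -1.18 (adjusted p = 0.027) and Ocln by -1.02 (0.049). With median centring in place of loess, 8 of 9 passed, Cldn11, Ocln and Cldn12 besides, and of the 8 only Cldn12 was higher (0.85, adjusted p = 0.021). No share of all genes is given for that setting, so the 8 cannot be set against one.

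In Nrf2-/- against wild-type esophagi limma called 0 of 9 members (0.0156% of all genes). An unadjusted p under 0.05 was reached by 1, Cldn11 (0.64 ± 0.25, adjusted p = 0.42), and by 2077 of 19246 genes. In Nrf2-/-Keap1-/- esophagi limma called 0 of 9 (0.426%), and again 1, Cldn11, had an unadjusted p under 0.05 (3368 of 19246 genes did). Cldn11 read 2.66, 2.04 and 2.42 there, above the wild-type values of 1.60, 0.76 and 1.59, a difference of 1.06 ± 0.25 (adjusted p = 0.083). It passed when the replicate number was a block.

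Set directly against Nrf2-/-Keap1-/- esophagi, which share the loss of Keap1, 7 of 9 members were lower in Keap1-/- (33.4% of all genes, 18.3% lower): Cldn7 by -4.68, Cldn8 by -3.89, Cldn3 by -3.79, Cldn4 by -1.80, Cldn23 by -1.76, Cldn11 by -1.59 and Ocln by -0.71. The Cldn4 and Cldn23 differences turned to 0.031 and 0.61 in the deposited ratios. The Cldn23 call was lost without Nrf2-/-Keap1-/- replicate 1 (-1.62, adjusted p = 0.070) or 3 (-1.70, 0.058), and that of Ocln without replicate 2 or 3 (0.056 each). The Cldn1 probe that was brightest over all arrays was lower too (-1.73, adjusted p = 0.0038), while the other overlapped (0.67, 2.84 and 2.82 against 2.94, 2.66 and 2.52). A comparison chosen after seeing the data asked whether the effect of Keap1 loss differed with Nrf2 present and absent. It called 4 of 9 members (15.1% of all genes, 7.98% lower and 7.13% higher): Cldn7 (-4.73 ± 0.33, adjusted p = 8.56e-06), Cldn3 (-3.99 ± 0.26, 4.33e-06), Cldn8 (-3.68 ± 0.44, 0.00037) and Cldn4 (-1.84 ± 0.43, 0.016). In the deposited ratios Cldn4 was at -0.11 (adjusted p = 0.82).

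Keratins listed as markers of simple columnar epithelium moved with these claudins at P7. All 4 on the list were lower in Keap1-/- than in wild-type esophagi: Krt19 (-6.37), Krt7 (-4.92), Krt8 (-4.11) and Krt18 (-2.41). Their mean ranged from -3.21 to -2.99 on Keap1-/- and from 0.91 to 1.74 on wild-type arrays. Over the wild-type stages it did not fall as the lining became squamous. It was -0.41 at E11.5, 1.75 at P0 and 1.36 at P7, and from E11.5 to P7 2 of 4 keratins were higher and 0 lower. Smooth muscle markers (5 of 5 lower), fibroblast markers (4 of 5) and pan-epithelial markers (2 of 5, Epcam lowest at -1.79) moved too. So did mesothelial (2 of 3 lower, Msln at -3.31) and leukocyte markers (2 of 4 lower). Squamous markers were higher in 1 of 4 basal and 2 of 5 suprabasal genes. Endothelial and neural or glial markers had 1 of 5 higher each. Skeletal muscle (5 markers) and cartilage (3) had 1 higher and 1 lower each. Over all genes 18% were lower and 15.4% higher, so counts of 1 say little. The part of these cells in the claudin differences was not tested.

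From P7 to the adult, Cldn7 and Cldn3 fell to the lowest values they had in wild-type mice, while Cldn1, Cldn4, Cldn8, Cldn12, Cldn23 and Ocln did not pass the test. Because whole esophagus was taken at P7 and epithelium from adults, age and dissected tissue cannot be told apart. Of 9 tested members 3 were lower and 0 higher, against 42.9% of 18168 genes (22.9% lower), and their median was -0.15 against 0.01.

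Cldn7 read -2.42, -1.95 and -2.38 in adults, a difference of -5.85 ± 0.21 from P7 (57.5-fold lower, adjusted p = 4.99e-06). Cldn3 read 0.56, 0.71 and 0.64, a difference of -3.84 ± 0.22 (14.4-fold lower, adjusted p = 2.82e-05). Cldn11 was not well above background on any adult array, so its adult level is a bound, at least 2.19-fold lower than at P7 (adjusted p = 0.0026). Within the 1 scan day that held the P7 arrays and 2 adult arrays the differences were -5.78 for Cldn7 and -3.84 for Cldn3, both called.

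Cldn8 read 4.71, 4.29 and 5.30 in adults against 4.27, 5.06 and 4.87 at P7 (difference 0.04 ± 0.29). Cldn4 read 3.87, 3.1 and 4.21 (-0.42 ± 0.29) and Cldn23 5.81, 5.17 and 5.20 (-0.15 ± 0.39). These 3 genes, low in Keap1-/- pups, gave values in the adult that overlapped those of wild-type pups. This depended on the processing: with each spot's own local background the differences were -2.44 for Cldn4 (adjusted p = 0.029), -2.62 for Cldn8 (0.082) and -2.69 for Cldn23 (0.098), with scale normalization Cldn4 was at -0.98 (0.014), and in the deposited ratios Cldn23 was at 0.71 (0.045). Cldn7 and Cldn3 were called under each of these. Of the simple keratins 3 of 4 were lower in adults (Krt19 -6.39, Krt7 -5.82, Krt8 -4.77), and their mean lay between -3.46 and -3.08. All 5 markers each of skeletal muscle, fibroblasts, endothelium and neurons or glia were lower, where 22.9% of all genes were. Mesothelial (3 of 3), smooth muscle (3 of 5) and respiratory or ciliated markers (1 of 2) were lower too. Pan-epithelial (5 markers) and cartilage (3) had 1 higher and 1 lower each. Among leukocyte markers 0 of 4 were called, and 1 of 4 basal squamous markers was higher. Suprabasal squamous markers were higher in 4 of 5 (20% of all genes).

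**Figure D4:**
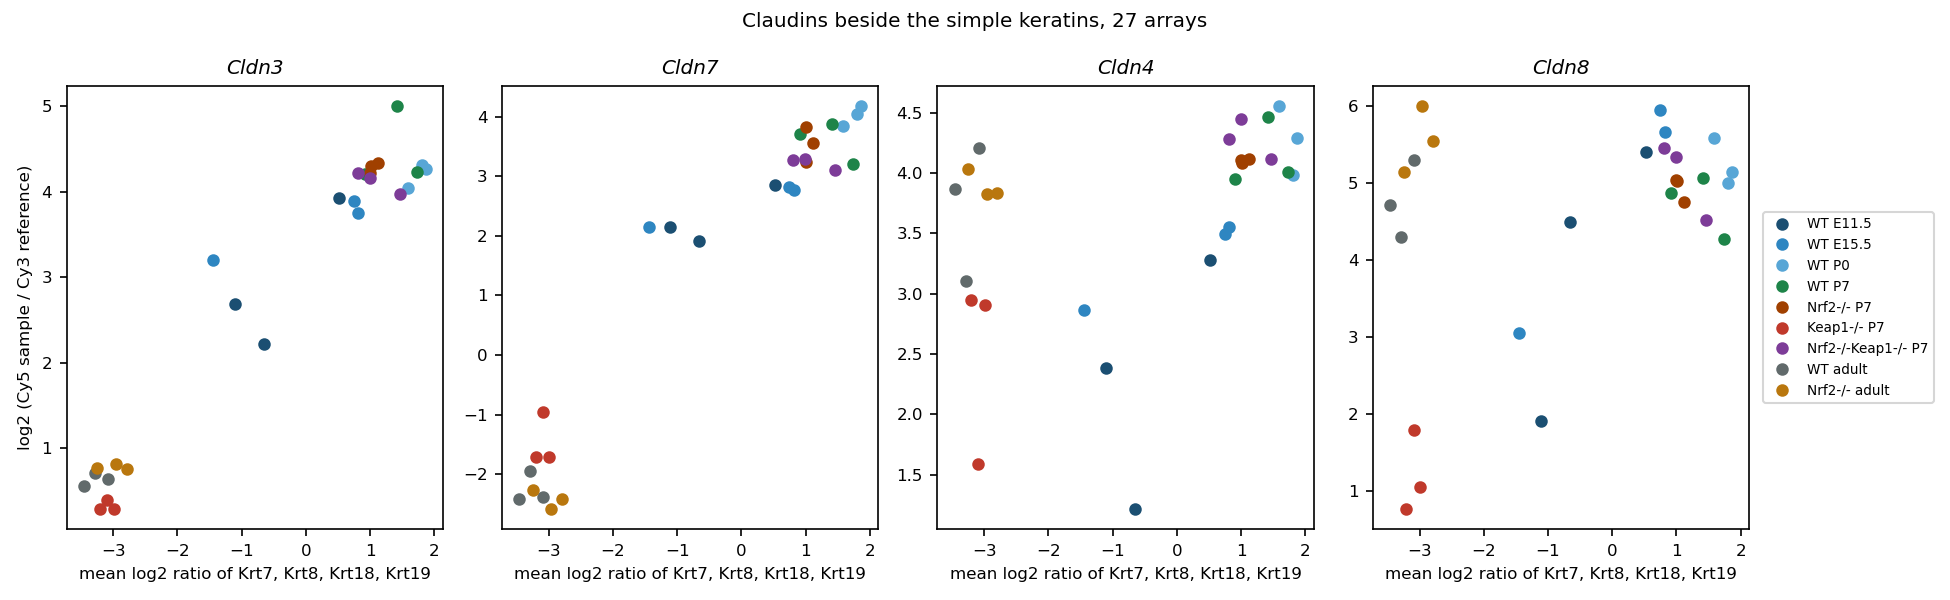
Log2 ratio of 4 claudins (vertical axis) against the mean log2 ratio of Krt7, Krt8, Krt18 and Krt19 (horizontal axis) on 27 arrays, coloured by group. Cldn3 and Cldn7 lie low wherever the keratins are low, in Keap1-/- pups and in both adult groups, whereas Cldn8 is high in adults.

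In adult epithelium, loss of Nrf2 called 0 of 8 members (0.445% of all genes), with 2, Cldn8 and Ocln, at an unadjusted p under 0.05 in limma (3069 of 18217 genes). Cldn8 read 5.54, 5.99 and 5.13 in Nrf2-/- against 4.71, 4.29 and 5.30 in wild-type adults (0.79 ± 0.29, adjusted p = 0.25), and Ocln 2.09, 2.28 and 2.23 against 2.11, 1.49 and 1.20 (0.60 ± 0.22, adjusted p = 0.24). Cldn3 lay between 0.76 and 0.82 in Nrf2-/- adults. Of the wild-type adults only replicate 3 shared a scan day or software version with Nrf2-/- arrays, so genotype and scan day largely coincide, and with scan day as a block the differences were 0.47 for Cldn8 (adjusted p = 0.45) and 0.98 for Ocln (0.21). With each spot's own local background they were 3.44 (0.057) and 1.48 (0.046). The effect of Nrf2 loss did not differ between adult and P7 beyond the test's threshold in any of 9 members (0.0919% of all genes), with 1, Ocln, at an unadjusted p under 0.05 (2194 of 19577 genes). On simulated data without slide or scan effects limma recovered 66% of changes of 1 log2 unit in the adult comparison.

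Raw intensities put a condition on Cldn3. The reference RNA is the same on every array, yet the Cy3 intensity of the Cldn3 probe followed its Cy5 intensity (r = 0.97 on the log2 scale over 27 arrays, which share a reference, against 0.08 to 0.88 for the other 11 probes). The Keap1-/- arrays were dimmer in Cy3 as a whole, with medians of 115 to 147 against 223 to 231 on wild-type arrays at P7. For the Cldn3 probe Cy3 was 606.8 to 928.2 in wild-type and 69.45 to 82.1 in Keap1-/- esophagi at P7. Its Cy5 went from between 2899 and 5703 to between 82.97 and 87.39. The ratio is thus smaller than the difference in the sample channel: with Cy5 alone, an alternative added after seeing the data, Cldn3 differed by -6.09, Cldn7 by -5.58, Cldn8 by -2.92 and Cldn4 by -1.98, each with an adjusted p of at most 0.05, and Cldn23 by -1.72 (0.051). The cause of the Cy3 signal was not tested. The Cldn8 probe was not well above background in Cy3 on any of 27 arrays.

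**Figure D5:**
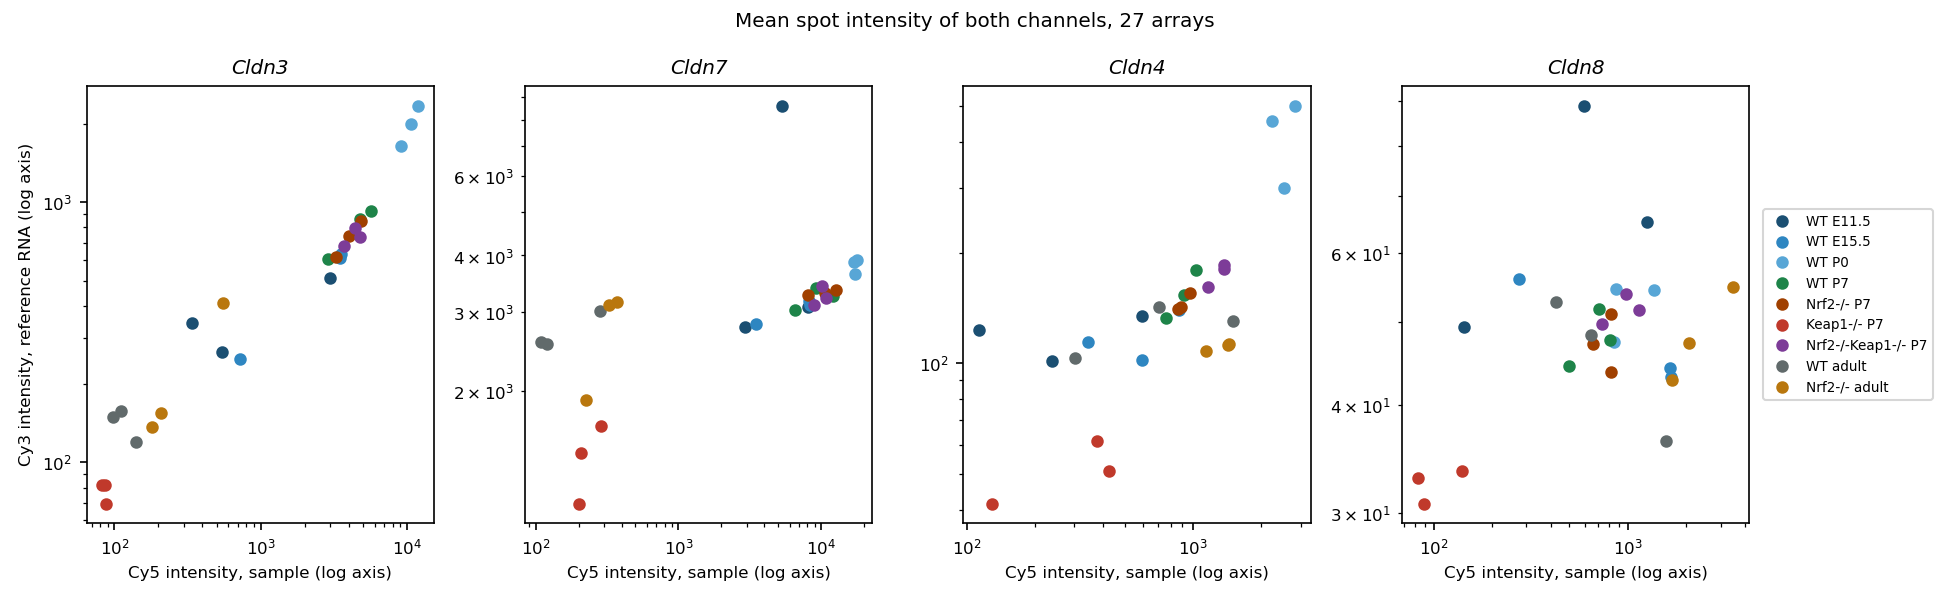
Mean spot intensity of the sample (Cy5, horizontal) and the reference (Cy3, vertical), on log axes, for the probes of 4 claudins on 27 arrays. The Cy3 intensity of Cldn3 follows Cy5 over the whole range, from 69.45 to 2347.

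Among themselves the members fell into few patterns over the 27 arrays, given as descriptions because arrays of a group share their source. Cldn3 went with Cldn7 (r = 0.97), Cldn23 with Ocln (0.87) and Cldn4 (0.84), and Cldn1 with Cldn4 (0.83), while Cldn6 went with Cldn11 (0.80) and against Cldn23 (-0.82). For Cldn3 and Cldn7 the arrays split into a low set (Keap1-/- and adults) and a high set, so these r rest largely on that split. Of 16922 other genes detected on at least 20 arrays, the closest to Cldn3 besides Cldn7 was Krt7 (0.97), and the 2 closest to Cldn7 were Krt7 and Cfap20dc (both 0.98). Those closest to Cldn23 were Il1r1 (0.96) and Arg1 (0.95), to Cldn11 Chst10 and Astn1 (both 0.97), to Cldn6 Nefm and Mapk7 (both 0.97), to Ocln Reep3 (0.91) and Erbb3 (0.90), to Cldn4 Lratd1 (0.89) and AK078982 (0.88), to Cldn8 Capsl (0.87) and Trappc6b (0.86), to Cldn1 Lpgat1 (0.84) and Cldn4 (0.83), and to Cldn12 Ptpn7 (0.73) and LOC639988 (0.72).

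Of 54 other tight junction genes on the array, 52 were tested in the wild-type stages and at P7. From E15.5 to P0 24 rose and 0 fell (11.2% and 8.44% of all genes), led by the junctional adhesion molecule F11r (2.10), the scaffold Tjp3 (2.10) and the protease inhibitor Spint2 (1.74). All 4 proteases and inhibitors and both other MARVEL proteins were among them. In Keap1-/- against wild-type esophagi at P7, 7 were higher and 11 lower, with a median of -0.01 and a share close to that of all genes (15.4% higher and 18% lower). The lowest were Ildr1 (-2.24) of tricellular junctions, the MARVEL protein Marveld3 (-1.87) and Epcam (-1.79), which binds Cldn7, and the highest Sympk (2.30), Wnk4 (1.27) and the scaffold Magi2 (0.98). From P0 to P7 only Cldn17 was called (1.53). Also near the shares of all genes (20% higher and 22.9% lower), 9 of 48 were higher from P7 to the adult, led by Cldn17 (2.73), Wnk4 (2.06) and Pard6g (1.35), and 12 lower, led by Ildr1 (-2.19), Amot (-2.01) and the endothelial claudin Cldn5 (-1.57). Among the 10 tested claudins outside the members 2 were higher from E15.5 to P0 (11.2% of all genes) and 3 from E11.5 to P7 (16.8%). Against wild-type esophagi 1 was higher (15.4%) and 1 lower (18%) in Keap1-/-. Loss of Nrf2, with or without Keap1, called 0 of 52 at P7 and 0 of 51 in adults. At an unadjusted p under 0.05 in limma were 7, 11 and 7 genes for Nrf2-/-, Nrf2-/-Keap1-/- and adult Nrf2-/- tissue. Over all genes these were 2077 and 3368 of 19246, and 3069 of 18217.

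Of 14 transcription factors known to act on junction genes, 4 rose from E15.5 to P0, led by Grhl1 (3.32), Elf3 (2.88) and Ehf (2.31), and 2 fell, Twist1 (-1.17) and Snai2 (-0.81), against 11.2% and 8.44% of all genes. In Keap1-/- against wild-type esophagi at P7 Elf3 (-2.58), Zeb1 (-0.95) and Snai2 (-0.88) led 5 that were lower, and Ovol1 (1.36) and Klf4 (0.82) were higher (18% and 15.4% of all genes). In adults against P7 6 were higher, led by Ovol1 (2.66), Grhl1 (2.26) and Klf4 (1.72), and 5 lower, led by Elf3 (-1.74), Zeb1 (-1.51) and Zeb2 (-1.24), where 42.9% of all genes were called. Of 9 adherens junction genes 4 rose from E15.5 to P0 (11.2% of all genes), led by Nectin4 (1.41). In Keap1-/- against wild-type esophagi 3 were lower, Nectin3 (-1.10), Cdh1 (-0.64) and Ctnna1 (-0.47), and Nectin1 was higher (0.57), 4 of 9 against 33.3% of all genes.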

How the data were processed

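Expression was measured on 27 2-colour Agilent arrays. The scanner files deposited by the authors hold the mean intensity and local background of each spot, read with Agilent Feature Extraction (9.1 in the submitters' notes, 10.5.1.1 and 10.7.3.1 in the headers), and the deposited log10 ratios equalled that software's own within 0.005. The log2 ratios used here were computed from the deposited intensities. Intensities were corrected by normexp (offset 50) and normalized by loess within each array, without control spots and without spots whose own background exceeded the array's median 5 times, but with spots marked as outliers, then averaged to probes and genes. A gene was tested if 3 or more arrays of the fit detected it well over background in the sample channel, with limma 3.58.1 (R 4.3.3, statmod 1.5.0 and data.table version 1.17.8), in separate fits for the stages, P7 genotypes, P7 and adult, adults, and both ages. P-values were adjusted by Benjamini-Hochberg over all tested genes, and genes were called at 0.05. The study's SAM was not run. Across arrays 58.9 to 69.3% of spots were well above background in Cy5, and the number of arrays limits the precision. On simulated data 56 to 76% of changes of 1 log2 unit and 86 to 96% of changes of 2 were recovered in 4 comparisons. The simulation had independent noise, no slide or scan effect and 100 changed genes of each size. That is far fewer than were called in all but the adult comparison, so these shares are not the power of the real tests. Members, gene lists (every member named, for the other lists the 3 largest called changes each way) and tests were chosen with earlier results of these data known. Promoters are RefSeq windows of GRCm38.p6. Replicates are biological by the labels, without litter or donor.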

Additional observations from a re-analysis of the deposited data

Results flagged for a closer look

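The effect of Keap1 loss at P7 differed with and without Nrf2 for 4 members in limma's interaction test, a comparison chosen after seeing the data. With Nrf2 present minus absent, the log2 difference was -4.73 for Cldn7, -3.99 for Cldn3, -3.68 for Cldn8 and -1.84 for Cldn4, which was at -0.11 (adjusted p = 0.82 in limma) in the deposited ratios. The slide and scan day of the 3 Keap1-/- arrays held no other group, so these values cannot be told apart from a difference between slides.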

How the results depend on the processing

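Of 343 recomputed counts of called members, 327 stayed within 1.5 times the reported count and 16 moved. The counts below are given without the share of all genes called in the same setting, which may have moved too. From E11.5 to E15.5, leaving out E11.5 replicate 3 and E15.5 replicate 1 gave 7 calls. With outlier-marked spots left out, the counts were 5 over the 4 stages, 4 from E11.5 to P7, 3 from E15.5 to P0 and 3 for Keap1-/- against wild-type. With each spot's own local background they were 4 over the stages, 3 from E15.5 to P0, 1 in adult Nrf2-/- and 1 for the difference of the Nrf2 effect between ages. Cy5 alone gave 8 from E15.5 to P0. Deposited ratios gave 3 and median centring 8 for Keap1-/- against wild-type. For Keap1-/- against Nrf2-/-Keap1-/-, deposited ratios and processed signals gave 4 each. For Nrf2-/-Keap1-/- against wild-type the replicate block and slide as a random block gave 1 each. The replicate numbers were not taken as pairs, since 9 of 18 same-numbered pairs in the stages and 8 of 18 at P7 deviated together (r over 0.1), although 9 of 12 arrays of the stages, against 4 of 12 at P7, were closest to their own number, a hint from the data and not the design. The block moved no other count. In deposited ratios and processed signals Cldn23 turned to 0.32 against wild-type and 0.61 against Nrf2-/-Keap1-/-, and Cldn4 to 0.031 against the latter; the cause was not tested. Leaving out 1 array at a time gave 6 to 8 calls over the stages, 5 to 8 from E11.5 to P7, 4 to 7 from E15.5 to P0, 4 to 6 for Keap1-/- against wild-type, 5 to 9 against Nrf2-/-Keap1-/-, 4 to 5 for the interaction and 2 to 3 from P7 to adult, where Cldn11 was not tested without any 1 P7 array, and 0 in the other comparisons. Of 1000 recomputed differences of single genes that were called in the main processing, 934 kept direction and call, 60 lost the call and 6 reversed. Differences not called there are outside this count, and some of them gained a call or changed sign in other settings.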
